A study of Mus musculus with 12 samples.

Results

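The carboxylesterase genes of the *Ces1*, *Ces2* and *Ces3* clusters were followed in whole livers of term mouse fetuses (E19.5, counted in days of gestation). Members were given as a list of 10 gene symbols, *Ces1c*, *Ces1d*, *Ces1e*, *Ces1f*, *Ces1g*, *Ces2a*, *Ces2c*, *Ces2e*, *Ces3a* and *Ces3b*, and 9 of them had a probeset that names a single gene, among 19938 genes measured. *Ces2c* was not analysed here. The fetuses were 6 *Ppara*-/- (KO), which lack the fatty acid-activated nuclear receptor PPARα, and 6 *Ppara*+/+ (WT), from matings of *Ppara*+/- parents, with 1 Affymetrix Mouse Gene ST array per liver. No fetus had been treated, and the strain is SV129 in the labels but C57BL/6 in the methods of the study. The deletion is carried by every cell of the fetus, livers were not sorted into cell types, and some fetuses shared a litter that the labels do not name. In such whole livers, fewer cells that express a gene and less RNA per cell cannot be told apart.

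Carboxylesterases are serine hydrolases that cleave ester and amide bonds. Most reside in the lumen of the endoplasmic reticulum of hepatocytes, where they release fatty acids from stored triglyceride and other lipid esters and hydrolyse ester drugs and other foreign compounds. In the mouse the family grew by tandem duplication, so that paralogs of similar sequence lie side by side on chromosome 8. In the gene order of the mouse assembly GRCm38.p6 they form 2 unbroken runs of protein-coding genes, one of 9 genes from *Ces1a* to *Ces5a* and one of 10 genes from *Ces2a* through *Ces3a* and *Ces3b* to *Ces4a*. Each measured member was read by 1 probeset, and no probeset naming several genes listed a carboxylesterase. How far a probeset of one paralog also binds the RNA of another was not tested.

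The genotype groups separated at the targeted gene. *Ppara* (probeset 10425987) had a log2 signal of 9.66 to 9.94 in the *Ppara*-/- group, against 10.71 to 10.95 in the *Ppara*+/+ group. This was a 2.01-fold fall, and the signal left in *Ppara*-/- livers was above the array medians of 6.71 to 6.75. What the probeset still reads there was not tested. Over all 19938 genes, 7.24% were called (limma, adjusted p under 0.05), of which 761 (3.82%) were lower and 682 (3.42%) higher in *Ppara*-/- livers, and the median difference was 0.01 on the log2 scale. Of the *Ppara*-/- fetuses, 5 were female and mouse 2 was male by *Xist* and Y-linked genes, whereas *Ppara*+/+ mice 2, 3 and 4 were male and mice 1, 5 and 6 female. *Ppara*-/- mouse 1 stood apart from its group over many genes, since the number of genes called was 2521 without it and 1443 with it. *Ppara*+/+ mouse 6 also stood apart, with 1978 genes called without it. Of 7 measured hepatocyte markers 1, the tyrosine aminotransferase *Tat*, was called, at -1.61 (limma adjusted p = 0.031). *Tdo2* differed by -0.94 and was not called (limma adjusted p = 0.40). *Alb* and *Ttr* each differed by 0.01 on the log2 scale, *Apoa1* by 0, *Cps1* by -0.01 and *Hpd* by 0.03. In *Ppara*-/- livers, *Alb*, *Apoa1*, *Ttr*, *Cps1* and *Hpd* had means of 13.56, 13.51, 13.24, 13.11 and 12.72. All of these are toward the highest value of all arrays, 13.91, where a change may be hard to see. *Tat* and *Tdo2* had lower means there, 10.08 and 6.75.

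Of the measured members, 4 of 5 *Ces1* genes, 0 of 2 *Ces2* genes and 2 of 2 *Ces3* genes were called lower in *Ppara*-/- livers. Among the 9 members with a probeset, 6 were called lower and 0 higher, and 3 missed the threshold, against 3.82% of all genes called lower, 3.42% called higher and 7.24% called in either direction. The 6 were *Ces1d*, *Ces1e*, *Ces1f*, *Ces1g*, *Ces3a* and *Ces3b*, whereas *Ces1c*, *Ces2a* and *Ces2e* did not pass the threshold. All 9 differences lay below 0, compared with 46.5% of all genes. The median difference of the 9 members was -0.49 on the log2 scale, and the single differences ranged from -1.37 to -0.16. The same 6 members were called without *Ppara*-/- mouse 1. Without *Ppara*+/+ mouse 6 the count was 7, as *Ces2a* was called too.

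**Figure D1:**
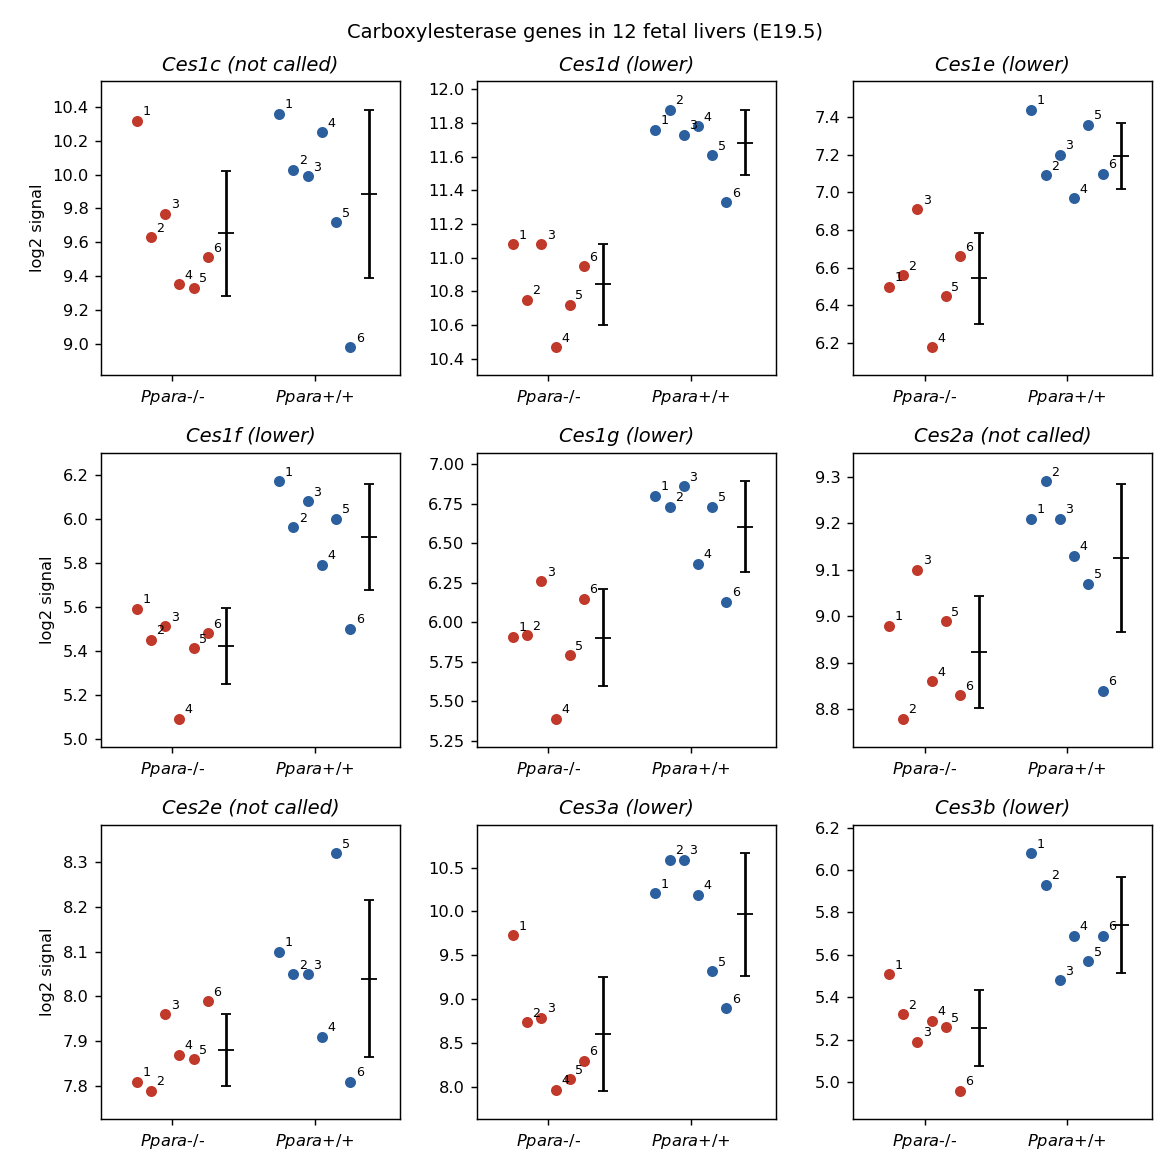
Log2 signal (y axis, a separate scale for each gene) of the 9 measured carboxylesterases in the 6 *Ppara*-/- livers (red) and the 6 *Ppara*+/+ livers (blue), with mouse numbers beside the points and black bars for the mean ± SD. The genotypes do not overlap for *Ces1d*, whose *Ppara*-/- livers end at 11.08 and whose *Ppara*+/+ livers start at 11.33, or for *Ces1e*, whereas *Ces1c* of *Ppara*+/+ mouse 6, at 8.98, lies below every *Ppara*-/- liver.

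The member with the smallest p-value was *Ces1d*, also known as triacylglycerol hydrolase, which mobilizes stored triglyceride for the assembly of very-low-density lipoproteins. *Ces1d* (probeset 10580635) read 11.08, 10.75, 11.08, 10.47, 10.72 and 10.95 in *Ppara*-/- mice 1 to 6, against 11.76, 11.88, 11.73, 11.78, 11.61 and 11.33 in *Ppara*+/+ mice 1 to 6. Every *Ppara*-/- liver lay below every *Ppara*+/+ liver, a separation in this direction seen in 2.29% of all genes, and in the other direction in 1.3%. The mean log2 signal of the *Ppara*-/- group was 10.84 ± 0.24 and that of the *Ppara*+/+ group 11.68 ± 0.19 (SD, n = 6 each), a 1.79-fold lower signal. The log2 difference was -0.84 (95% interval -1.07 to -0.60, limma adjusted p = 0.00032). Its signal belonged to the brightest of the array, above 97.4% of genes.

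*Ces1e* encodes egasyn, which holds β-glucuronidase in the endoplasmic reticulum. *Ces1e* (probeset 10580649) read 6.50, 6.56, 6.91, 6.18, 6.45 and 6.66 in *Ppara*-/- mice 1 to 6, against 7.44, 7.09, 7.20, 6.97, 7.36 and 7.10 in *Ppara*+/+ mice 1 to 6. Here, too, the genotypes did not overlap, although *Ppara*-/- mouse 3, at 6.91, came close to *Ppara*+/+ mouse 4, at 6.97. The means were 6.55 ± 0.24 for *Ppara*-/- and 7.19 ± 0.18 for *Ppara*+/+ (SD, n = 6 each), and the log2 difference was -0.65 (SE 0.11, limma adjusted p = 0.0022).

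*Ces1g*, whose loss in mice is known to raise liver fat and blood lipids, and *Ces1f* followed the same direction with some overlap. *Ces1g* (probeset 10580678) read 5.91, 5.92, 6.26, 5.39, 5.79 and 6.15 in *Ppara*-/- mice 1 to 6, against 6.80, 6.73, 6.86, 6.37, 6.73 and 6.13 in *Ppara*+/+ mice 1 to 6. It was 1.62-fold lower, with a 95% interval of the log2 difference of -1.01 to -0.39 (limma adjusted p = 0.01). *Ces1f* (probeset 10580663) read 5.59, 5.45, 5.51, 5.09, 5.41 and 5.48 in *Ppara*-/- mice 1 to 6, against 6.17, 5.96, 6.08, 5.79, 6.00 and 5.50 in *Ppara*+/+ mice 1 to 6. In both genes 4 of 6 *Ppara*-/- livers read less than any *Ppara*+/+ liver, and the overlap came from *Ppara*+/+ mouse 6. The log2 difference of *Ces1f* was -0.49 (SE 0.11, limma adjusted p = 0.013), or 1.41-fold lower.

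*Ces1c* encodes the carboxylesterase that the liver secretes into rodent plasma. *Ces1c* (probeset 10580624) read 10.32, 9.63, 9.77, 9.35, 9.33 and 9.51 in *Ppara*-/- mice 1 to 6, against 10.36, 10.03, 9.99, 10.25, 9.72 and 8.98 in *Ppara*+/+ mice 1 to 6. The genotypes overlapped over most of their range, as *Ppara*-/- mouse 1 was close to the highest and *Ppara*+/+ mouse 6 the lowest of all 12 livers. The log2 difference was -0.24 with a 95% interval of -0.69 to 0.22 (limma adjusted p = 0.60), so a fall as large as that of *Ces1e* lies within the interval. It was -0.42 without *Ppara*+/+ mouse 6 and -0.14 without *Ppara*+/+ mouse 1, and was not called in either case (limma adjusted p = 0.13 and 0.78). Within each liver, *Ces1d* exceeded *Ces1c* by 0.76, 1.12, 1.31, 1.13, 1.39 and 1.44 on the log2 scale in *Ppara*-/- mice 1 to 6, and by 1.40, 1.84, 1.74, 1.52, 1.89 and 2.35 in *Ppara*+/+ mice 1 to 6. These gaps hold the unknown brightness of each probeset, so only their change between livers can be read, and the change was not tested. Against *Ces2a* the gap of *Ces1d* was 2.09, 1.97, 1.98, 1.62, 1.74 and 2.13 in *Ppara*-/- mice 1 to 6, and 2.55, 2.59, 2.52, 2.65, 2.54 and 2.49 in *Ppara*+/+ mice 1 to 6, without overlap. The narrow band of these *Ppara*+/+ values contrasts with the wider one of *Ces1d* over *Ces1c*.

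The largest difference among the members was that of *Ces3a*. *Ces3a* (probeset 10574598) read 9.73, 8.74, 8.79, 7.97, 8.09 and 8.30 in *Ppara*-/- mice 1 to 6, against 10.21, 10.59, 10.59, 10.19, 9.32 and 8.90 in *Ppara*+/+ mice 1 to 6. It varied more between livers than any other member in either genotype, over a range of 1.76 among *Ppara*-/- and 1.68 among *Ppara*+/+ livers. *Ppara*-/- mouse 1 alone crossed into the *Ppara*+/+ range, where it exceeded mice 5 and 6. The means were 8.60 ± 0.64 for *Ppara*-/- and 9.97 ± 0.70 for *Ppara*+/+ (SD, n = 6 each), a log2 difference of -1.37 (95% interval -2.06 to -0.67, limma adjusted p = 0.021) or 2.58-fold. The call depended on the setting. It ended with the sex score as a covariate (-1.13, adjusted p = 0.06) and under robust variance with an intensity trend (0.055). It was lost without any 1 of *Ppara*-/- mice 4, 5 and 6 and *Ppara*+/+ mice 2 and 4 (adjusted p 0.050 to 0.055). It held with animal number as the only covariate (-1.26, adjusted p = 0.00022) and with animal number and sex score together (-1.16, adjusted p = 0.0007). Of 29 other settings, the *Ces3a* call held in 19 and ended in 10.

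Its neighbour *Ces3b* was dim and was also called lower, with a difference of -0.48 on the log2 scale. *Ces3b* (probeset 10574607) read 5.51, 5.32, 5.19, 5.29, 5.26 and 4.96 in *Ppara*-/- mice 1 to 6, against 6.08, 5.93, 5.48, 5.69, 5.57 and 5.69 in *Ppara*+/+ mice 1 to 6. In 5 of 6 *Ppara*-/- livers the signal was under that of any *Ppara*+/+ liver, and mouse 1 was again the exception. It was 1.40-fold lower (limma adjusted p = 0.011, 95% interval of the log2 difference -0.71 to -0.26). Its mean signal exceeded that of 25.5% of genes, and the other dim members were *Ces1f*, above 28.2% of genes, *Ces1g*, above 37.5%, and *Ces1e*, above 46.3%. At such low signal a fold change on an array can be compressed, and the size of these differences is to be read as a measured value of the probeset. *Ces3b* and *Ces1f* had means of 5.26 and 5.42 in *Ppara*-/- and 5.74 and 5.92 in *Ppara*+/+ livers. *Ptf1a* and *Prss2*, the dimmest pancreas markers listed, had 5.14 and 5.37 in *Ppara*-/- and 5.14 and 5.39 in *Ppara*+/+ livers. Whether the dim members are expressed above background was not tested.

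The *Ces2* members differed little. *Ces2a* (probeset 10574498), which hydrolyses lipid and drug esters, read 8.98, 8.78, 9.10, 8.86, 8.99 and 8.83 in *Ppara*-/- mice 1 to 6, against 9.21, 9.29, 9.21, 9.13, 9.07 and 8.84 in *Ppara*+/+ mice 1 to 6. The groups overlapped through *Ppara*+/+ mice 5 and 6. The log2 difference was -0.20 (95% interval -0.36 to -0.04) and was not called (limma adjusted p = 0.13, unadjusted p = 0.017). It was called without *Ppara*+/+ mouse 6 (-0.26, adjusted p = 0.02) and with array weights (-0.24, adjusted p = 0.032). *Ces2e* (probeset 10574545) read 7.79 to 7.99 across the *Ppara*-/- livers, against 7.81 to 8.32 across the *Ppara*+/+ livers, so that all *Ppara*-/- livers but 1 lay within the *Ppara*+/+ range. Its difference was -0.16 (95% interval -0.32 to -0.01, limma adjusted p = 0.22). Whether the *Ces2* differences are smaller than those of *Ces1* and *Ces3* genes was not tested.

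Promoter sequences from RefSeq, 250 bases before to 50 bases after the start of transcription on GRCm38.p6, were found for 7 of the 10 members, and those of *Ces1d*, *Ces1f* and *Ces3a* were not analysed here. PPARα is known to bind, with its partner RXR, a direct repeat of AGGTCA with 1 base between. The promoters of 3 members called lower and of *Ces2a*, which was not called, are shown so that the windows can be compared. Capitals mark the motifs TATAAA and AGGTCA on either strand, and the *Ces1e* window held neither.
Ces1e promoter, chr8:93229570-93229869, minus strand: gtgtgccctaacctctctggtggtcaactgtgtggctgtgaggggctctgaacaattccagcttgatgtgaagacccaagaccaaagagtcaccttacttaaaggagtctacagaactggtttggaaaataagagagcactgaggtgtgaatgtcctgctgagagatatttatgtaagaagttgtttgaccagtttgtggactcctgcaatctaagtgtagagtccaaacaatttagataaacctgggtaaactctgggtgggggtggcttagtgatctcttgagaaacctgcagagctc
Ces1g promoter, chr8:93337160-93337459, minus strand: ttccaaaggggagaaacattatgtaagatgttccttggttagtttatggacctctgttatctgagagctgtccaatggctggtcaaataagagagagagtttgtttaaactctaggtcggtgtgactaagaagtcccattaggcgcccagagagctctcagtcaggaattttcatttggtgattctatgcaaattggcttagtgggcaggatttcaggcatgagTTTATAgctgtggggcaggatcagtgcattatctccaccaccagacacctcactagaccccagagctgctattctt
Ces3b promoter, chr8:105083505-105083804, plus strand: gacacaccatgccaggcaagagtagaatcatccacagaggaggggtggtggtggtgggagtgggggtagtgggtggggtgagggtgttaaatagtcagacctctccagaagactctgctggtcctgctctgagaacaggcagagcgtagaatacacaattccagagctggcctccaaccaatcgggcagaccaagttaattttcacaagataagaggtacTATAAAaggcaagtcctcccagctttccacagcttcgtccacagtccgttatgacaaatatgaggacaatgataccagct
Ces2a promoter, chr8:104733753-104734052, plus strand: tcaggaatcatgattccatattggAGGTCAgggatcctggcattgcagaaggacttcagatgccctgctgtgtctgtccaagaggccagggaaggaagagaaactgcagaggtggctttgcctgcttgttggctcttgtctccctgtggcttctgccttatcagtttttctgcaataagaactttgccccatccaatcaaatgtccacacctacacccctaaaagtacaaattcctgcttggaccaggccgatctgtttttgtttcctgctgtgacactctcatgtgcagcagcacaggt

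The direct repeat, AGGTCA and again AGGTCA with any 1 base between, was in 0 of the 7 windows, on either strand, against 0.0396% of 32851 promoters in the table. So rare an exact match is missing from nearly any 7 windows, and whether PPARα binds in these was not tested. The half-site AGGTCA was in 1 of 7, that of *Ces2a*, against 16.3% of all promoters. TATAAA was in 2 of 7, those of *Ces1g* and *Ces3b*, against 13.6% of all, and the palindrome bound by HNF1, GTTAAT and ATTAAC with any 1 base between, was in 0 of 7 against 0.00913%. The half-site is part of the direct repeat, and the other motifs were searched on both strands independently of it. The longest run of identical bases was 9 to 11 in pairs of *Ces1* promoters, 9 to 17 in pairs of *Ces2* promoters, with 17 between *Ces2a* and *Ces2e*, and 7 to 10 in pairs from different families, so these ranges overlapped. These letters describe the windows alone, and regions further away were not read.

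The other carboxylesterase genes showed 1 call. Of 12 listed, 7 were measured, all of them in the same chromosomal runs. Of the 7, 1 was lower, 0 higher and 6 not called, against 3.82% of all genes lower and 3.42% higher. Their median log2 difference was -0.06. *Ces1b*, next to *Ces1c*, read 7.38 to 8.18 across the *Ppara*-/- livers, against 7.90 to 8.80 across the *Ppara*+/+ livers, and 4 of 6 *Ppara*-/- livers were under the *Ppara*+/+ range. The difference was -0.64 (SE 0.17, limma adjusted p = 0.031). The call ended with the sex score (adjusted p = 0.091), the erythroid score (0.052), the animal number block (0.054) and the trend and robust settings (0.054). It also ended without any 1 of *Ppara*-/- mice 2, 4, 5 and 6 and *Ppara*+/+ mice 1 to 4 (0.060 to 0.078). With animal number as a covariate it held (-0.59, adjusted p = 0.0026). Of 29 other settings, the *Ces1b* call held in 15 and ended in 14. *Ces1a* differed by -0.12, *Ces4a* by -0.09, *Ces2f* by -0.06, *Ces2b* and *Ces5a* by -0.03 and *Ces2g* by -0.02, with limma adjusted p between 0.26 and 0.92. Of these, *Ces2g* was the brightest relative to all genes, above 85.1% of them.

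**Figure D2:**
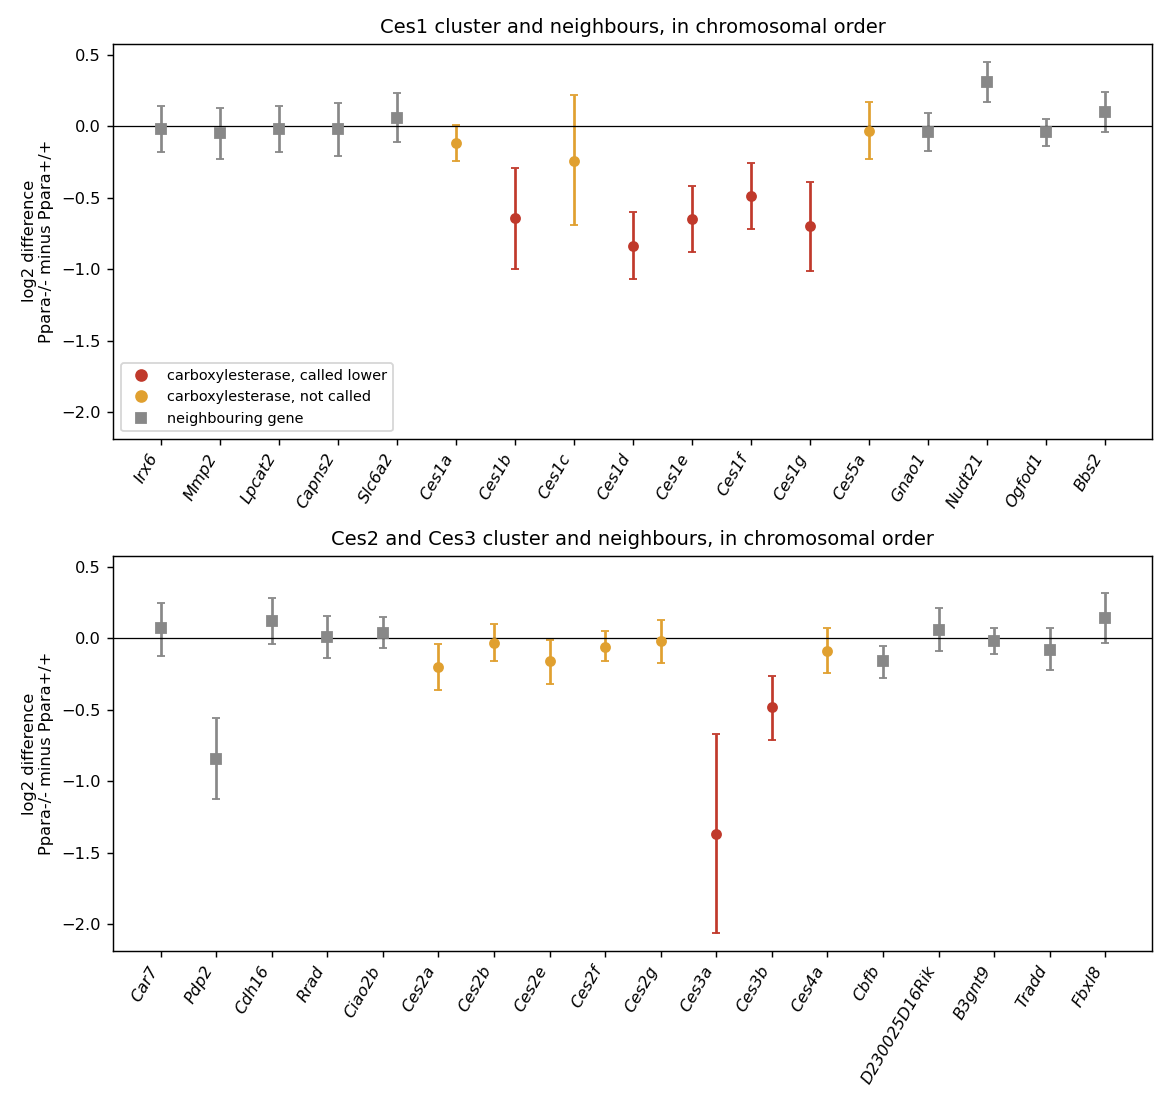
Log2 difference, *Ppara*-/- minus *Ppara*+/+ (y axis), with its 95% interval from limma, of the measured carboxylesterases (circles, red where called lower) and of the neighbouring genes on either side (grey squares), in chromosomal order (x axis). *Ces1b* and *Ces1d* to *Ces1g* lie between -0.84 and -0.49, and *Ces2a* to *Ces2g* between -0.20 and -0.02, before *Ces3a* at -1.37.

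Of the 20 protein-coding genes that flank them, 5 on each side of each run, 19 were measured, and 1 was lower, 1 higher and 17 not called, where 7.24% of all genes were called. The median difference of the 19 was -0.02 on the log2 scale. The gene called lower was *Pdp2*, a phosphatase that activates pyruvate dehydrogenase, 4 places before *Ces2a* (-0.84, limma adjusted p = 0.0013). The one called higher was *Nudt21*, a factor of mRNA 3′-end processing, after *Ces5a* (0.31, limma adjusted p = 0.011). Whether probeset 10491036, which gave the *Nudt21* value, lies at this place on the chromosome was not checked. The nearest neighbours were not called. They were *Slc6a2* (0.06) and *Gnao1* (-0.04) around the *Ces1* run, and *Ciao2b* (0.04) and *Cbfb* (-0.16, limma adjusted p = 0.069) around the *Ces2* and *Ces3* run.

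Within a genotype the members varied by liver. *Ppara*+/+ mouse 6 was the lowest of its group in 7 of the 9 members and below its group mean in all 9. *Ppara*-/- mouse 4 was the lowest of its group in 5 members and above the group mean in 1. *Ppara*-/- mice 1 and 3 were each the highest in 4 members, yet in different ones. Mouse 1 led in *Ces1c*, *Ces1f*, *Ces3a* and *Ces3b*, by 1.12 above the group mean in *Ces3a* and 0.67 in *Ces1c*, but stood at -0.04 in *Ces1e*. Mouse 3 led in *Ces1d*, *Ces1e*, *Ces1g* and *Ces2a*.

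**Figure D3:**
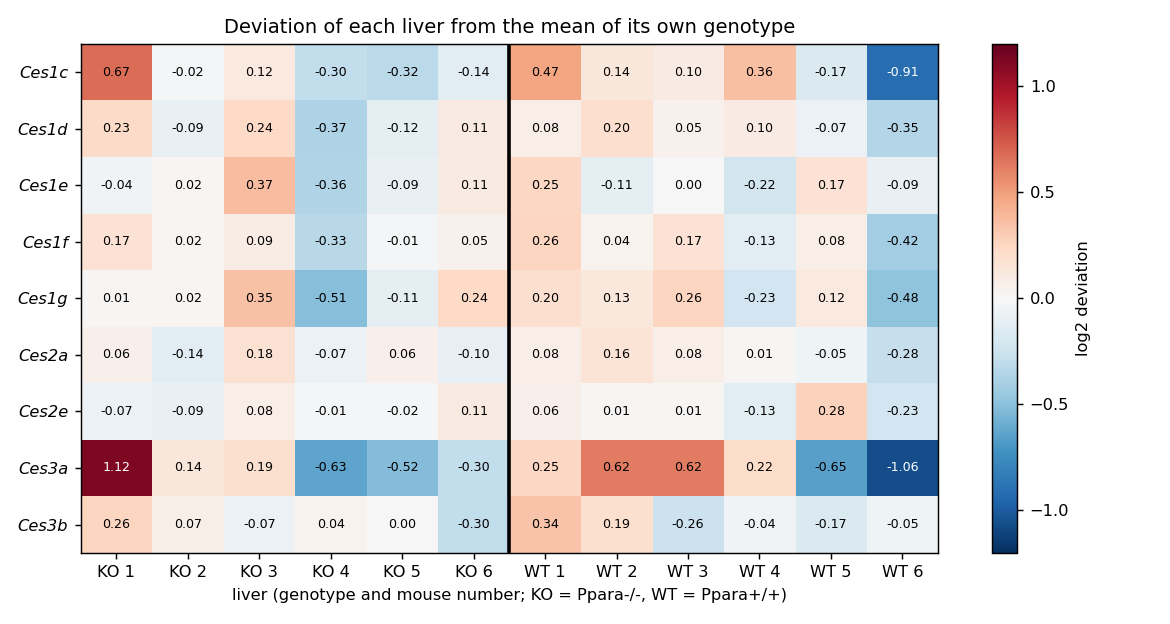
Deviation of each liver (x axis) from the mean of its own genotype, in log2 units (colour and printed value), for the 9 measured members (y axis). *Ppara*-/- mouse 1 stands at 1.12 for *Ces3a* and 0.67 for *Ces1c* and near 0 for *Ces1e* and *Ces1g*, and *Ppara*+/+ mouse 6 is below 0 in all 9.

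Fetuses carry animal numbers in the labels, and the genotypes were spread unequally over these, with 4 *Ppara*-/- and 2 *Ppara*+/+ fetuses among the 6 highest. The mean log2 signal of *Ces1c* among the 6 highest numbers was 9.49 in 4 *Ppara*-/- and 9.35 in 2 *Ppara*+/+ livers, and among the 6 lowest 9.97 in 2 *Ppara*-/- and 10.16 in 4 *Ppara*+/+ livers. Its genotype difference was 0.14 in the highest numbers, -0.19 in the lowest, and -0.02 with lowest and highest numbers as a block. For *Ces3a* the difference was -0.83 in the highest numbers (limma adjusted p = 0.15) and -1.16 in the lowest (adjusted p = 0.084), and -1.0 with the same block (adjusted p = 0.0067). *Ces1d* differed by -0.66 and -0.87 in the highest and lowest numbers (limma adjusted p = 0.12 and 0.0044). Each of the 6 called members had a difference below 0 among both the highest and the lowest numbers, where a genotype had 2 or 4 livers. Litter is not in the labels, and its part in the differences was not tested.

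**Figure D4:**
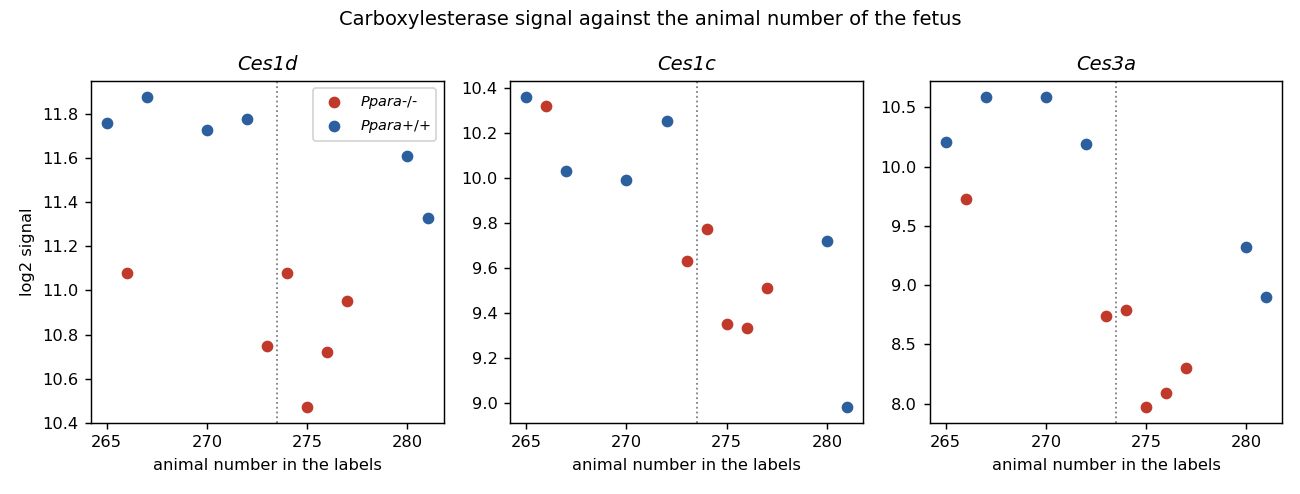
Log2 signal (y axis) of *Ces1d*, *Ces1c* and *Ces3a* against the animal number in the labels (x axis) in *Ppara*-/- (red) and *Ppara*+/+ (blue) livers, with a dotted line between the 6 lowest and 6 highest numbers. *Ces1d* of every *Ppara*-/- liver, up to 11.08, lies below every *Ppara*+/+ liver at any number, while the mean of *Ces1c* among the 6 highest numbers, 9.49 in *Ppara*-/- and 9.35 in *Ppara*+/+ livers, is under that of the 6 lowest in both genotypes.

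Genes whose variation between livers was most like that of *Ces1d* were sought by Pearson's r of values centred within each genotype, over the 12 livers, as a description. They were *Slc25a15* (0.97), the mitochondrial ornithine transporter, *Cyp2j5* (0.95), a cytochrome P450 of the liver and kidney, *Arf2* (0.95), *Erc1* (0.95) and *Krt23* (0.94). All 5 were also called lower in *Ppara*-/- livers, with differences from -1.37 for *Krt23* to -0.30 for *Arf2*. For *Ces3a* they were *Olfr16*, *Slc25a25*, *Aldh8a1* and *Gcgr*, the glucagon receptor (each 0.98), and *Iigp1* (0.97). Only *Slc25a25* of these was called (-0.84, limma adjusted p = 0.0034). Among the members, *Ces1c* was the most like *Ces3a* at 0.88, and *Ces3b*, its neighbour on the chromosome, stood at 0.39.

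Other esterases and lipases of the liver, listed together with the epoxide hydrolase *Ephx1*, were lower in part. Among 23 with a probeset, 6 were called lower and 0 higher, against 3.82% of all genes lower and 3.42% higher. Their median log2 difference was -0.12. *Cmbl*, a cytosolic hydrolase that activates ester prodrugs, differed by -1.08 (9.35 ± 0.17 in *Ppara*-/- and 10.43 ± 0.24 in *Ppara*+/+ livers, SD, n = 6, limma adjusted p = 1.8e-05). *Abhd6* and *Mgll*, which cleave monoacylglycerols, differed by -0.80 and -0.68, the microsomal epoxide hydrolase *Ephx1* by -0.57, the hormone-sensitive lipase *Lipe* by -0.36 and *Abhd2* by -0.34. In *Cmbl*, *Abhd6*, *Mgll* and *Abhd2* no *Ppara*-/- liver reached the *Ppara*+/+ range, a separation seen in 2.29% of all genes. Among the genes that missed the threshold, the smallest p-values belonged to the triglyceride lipase *Pnpla2* (-0.16, limma adjusted p = 0.07), *Nceh1* (-0.32, adjusted p = 0.078), *Lypla2* (-0.13, adjusted p = 0.084) and the acetylcholinesterase *Ache* (0.12, adjusted p = 0.14). *Aadac*, an esterase of the endoplasmic reticulum like the carboxylesterases, is named after its values were seen. Its difference was 0.03 (95% interval -0.07 to 0.14, limma adjusted p = 0.77).

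Of 9 measured receptors and factors that are known to act on carboxylesterase or other detoxification genes, 2 were lower and 2 higher. Of all genes, 3.82% were called lower and 3.42% higher. The bile acid receptor *Nr1h4* differed by -0.31 (limma adjusted p = 0.0082) and the oxysterol receptor *Nr1h3* by -0.34 (adjusted p = 0.033), whereas the glucocorticoid receptor *Nr3c1* was higher by 0.30 (adjusted p = 0.0083) and the aryl hydrocarbon receptor *Ahr* by 0.51 (adjusted p = 0.001). The xenobiotic receptors *Nr1i3* (-0.68, limma adjusted p = 0.061) and *Nr1i2* (-0.23, limma adjusted p = 0.051) were close to the threshold but not called. *Nfe2l2*, a regulator of oxidative stress genes, differed by -0.10 and *Hnf4a*, a hepatocyte factor, by -0.06, and neither was called.

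Some markers of other cells moved with genotype, where 7.24% of all genes were called. Of 5 gut epithelium markers, listed because *Ces2* genes are abundant in intestine, *Lgals4* (-1.37) and *Fabp2* (-1.07) were lower and *Vil1* higher (0.73), while the defining factors *Cdx1* and *Cdx2* were not called (0.11 and 0.07). The mean log2 signal of the 5 was 6.28 to 6.51 across *Ppara*-/- livers, against 6.57 to 6.78 across *Ppara*+/+ livers. This mean joins genes that moved in opposite directions, and the median difference of the 5 was 0.07. Of 4 measured fetal hepatoblast markers *Dlk1* was higher (0.42), of 9 macrophage markers *Cd5l* (0.40) and *Csf1r* (0.23), of 4 pancreas markers *Cela1* (0.33, limma adjusted p = 0.0043, with 6 of 6 *Ppara*-/- livers above all *Ppara*+/+ livers), and of 4 stellate cell markers *Des* was lower (-0.39). None of the 6 measured erythroid, 9 granulocyte, 6 endothelial, 4 megakaryocyte or 4 measured cholangiocyte markers was called by limma. The part of these cells in the carboxylesterase differences was not tested.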

How the data were processed

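Per the labels, total RNA of 12 whole livers at E19.5 was hybridized to Affymetrix Mouse Gene ST arrays, 1 liver per array. The authors deposited log2 signals made with RMA, which corrects background, normalizes between arrays and gives 1 value per probeset. RMA version and build were not given in the sources used here. Names of the 35556 probesets came from the platform's table, 21789 of them with 1 symbol, of which 21698 matched the gene table of GRCm38.p6 by gene ID. The probeset with the highest mean was taken per gene, without a filter, which left 19938 genes. Array medians ranged from 6.71 to 6.75. Arrays carry no read depth, and their number, 6 per genotype, limits the precision.

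Differences are *Ppara*-/- minus *Ppara*+/+, tested two-sided in limma 3.58.1 (lmFit, then eBayes) under R 4.3.3, with Benjamini-Hochberg adjustment across all 19938 genes (threshold 0.05). P-values do not allow for shared litters. Intervals are 95% intervals of that fit. The procedure was tested on simulated data. Members and lists were chosen with earlier results of these data known. Named genes were all members, the other carboxylesterases, called genes and those of smallest p of the esterase and receptor lists, called or nearest flanking genes, and the 5 genes most like *Ces1d* and *Ces3a*. Called cell type markers are named beside them. Motif and promoter searches used Python 3.11.15 and pandas 2.3.3, and figures matplotlib 3.10.9. Other settings tried were renewed quantile normalization, a shift to equal medians, filters at the 25th and 50th percentile, the mean of all probesets, single probesets, array weights, an intensity trend with robust variance, a block for mouse number, covariates for sex, erythroid score and animal number, a block for the 6 lowest against the 6 highest animal numbers, each of these alone, the exact Mann-Whitney test, leaving out each liver, and, added after the data were seen, animal number with sex score.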

Additional observations from a re-analysis of the deposited data

Results flagged for a closer look

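Of 18 groups of 6 livers, 9 members in each genotype, 1 held a liver far from the rest. *Ces1f* in *Ppara*-/- mouse 4 read 5.09, while the other 5 *Ppara*-/- livers lay between 5.41 and 5.59, a gap of 0.638 of the group's range, above Dixon's critical value for 6 samples. Chance flags about 1 in 20 groups.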

How the results depend on the processing

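Of the 9 members, 6 were called lower, and the count stayed between 5 and 7 in all limma settings on 11 or 12 livers that tested every member (5 to 7 with 1 liver left out). It was 2 among genes above the 50th percentile, where *Ces1e*, *Ces1f*, *Ces1g* and *Ces3b* fell below the filter, 2 in the 6 lowest and 0 in the 6 highest animal numbers, and 0 by the exact Mann-Whitney test. That test called 0 of all genes (smallest adjusted p = 0.06, 3686 genes at an unadjusted p under 0.05), and *Ces1d* and *Ces1e* had the smallest p it can give here, 0.0022. Over all genes the 1443 calls became 2743 with array weights, 850 with the sex score, 936 with the animal number block, 193 and 223 in the 6 lowest and 6 highest numbers, and 851 to 2521 with 1 liver left out, the highest without *Ppara*-/- mouse 1. No member was called higher in any setting. *Ces1d*, *Ces1e*, *Ces1f*, *Ces1g* and *Ces3b* were called in every other setting that tested them, with adjusted p up to 0.037 for *Ces1f*. Of the other carboxylesterases, 1 was lower, and 0 with trend and robust settings, the sex or erythroid score, the animal number block, the 6 highest numbers and the Mann-Whitney test (0 to 1 with 1 liver left out). Of the other esterases and lipases, listed with *Ephx1*, 6 were lower, with 3 and 2 in the lowest and highest numbers. The count was 0 by the Mann-Whitney test, and 9 with array weights and among genes above the 50th percentile (6 to 8 with 1 liver left out). Up to 1 was higher with 1 liver left out. Signs turned in genes that were not called. *Ces1c* was at 0.14 in the 6 highest numbers, *Ces2b* at 0.03 in the 6 lowest, *Ces2g* at 0.02 with the animal number block and 0.05 in the 6 highest, and *Ces5a* at 0.02 in the 6 lowest. With 1 liver left out *Ces2b* ranged from -0.06 to 0.01, *Ces2g* from -0.06 to 0.02 and *Ces5a* from -0.09 to 0.03. Mouse numbers are shared between genotypes, and the labels do not say whether they mark pairs. Same-numbered livers deviated together with correlations from 0.02 to 0.39. For each *Ppara*-/- liver, the highest correlation with a *Ppara*+/+ liver of another number was from 0.10 to 0.43. These ranges overlap and cannot show whether the numbers mark pairs. With the mouse number as a replicate block 6 members were lower. The cause of these changes was not tested.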
